A study of Mus musculus with 9 samples.

Results

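The PPM family is a group of metal-dependent protein phosphatases that remove phosphate groups from serine and threonine. Its 10 members followed here are Ppm1a, Ppm1b, Ppm1d, Ppm1f, Ppm1g, Ppm1h, Ppm1j, Ppm1k, Ppm1l and Ppm1m, chosen by name: every probe that the platform annotation gives one of these symbols was taken. They are 10 of the 19057 genes that the annotation pairs with a probe of a single symbol, and 31 probes carry them. Ppm1d encodes Wip1, the phosphatase that the study removed.

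RNA of mouse spermatids, the haploid germ cells that mature into sperm after meiosis, was measured on 9 Illumina Mouse WG-6 v2.0 bead arrays, 3 per genotype. The genotypes were Wip1+/+ (wild type), Wip1-/- (both copies of Ppm1d disrupted) and Wip1-/- Atm+/- (the same, with 1 copy of Atm lost in addition). The sources used here do not give the alleles, the age and strain of the mice or the way spermatids were isolated. Since the labels do not state whether the replicates of a genotype stem from separate animals, p-values measure only the spread between these arrays, whose small number limits the precision.

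PPM enzymes work as single chains, without separate regulatory subunits, and need magnesium or manganese ions. Wip1 is induced by p53 after DNA damage and removes the phosphates that the kinase ATM places on itself and on its targets, which ends the damage signal. Other members act on stress kinases, on the Smad proteins of TGF-beta signalling, on splicing and chromatin proteins, on Rab GTPases and on a mitochondrial enzyme of amino acid breakdown.

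Of the 31 probes, 18 from 9 genes were detected (detection p under 0.05) on at least 3 arrays and tested. Another 12 fell below that filter, 10 of them detected on no array, and 1 probe of Ppm1k has no scanner values in the table used here. Levels are log2 intensities after background correction and quantile normalization, and changes are differences of mean levels from a limma fit to all 18867 tested probes, with Benjamini-Hochberg adjustment over all of them and a threshold of 0.05. The median scanner intensity was 100.5 to 121.8 per array, with 37.9% to 42% of probes detected, and arrays of 1 genotype correlated at 0.987 to 0.993 across probes, against 0.958 to 0.982 between genotypes.

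The promoters of Ppm1d and Ppm1a are shown because each had a probe that was lower in Wip1-/- and because, among the promoters of the members, these carry the letters TGACGTCA, the full cAMP response element. CREM, a main transcriptional activator of spermatids, is known to bind this element. The 250 bases before each start were read on the plus strand from RefSeq (GRCm38.p6), and the capitals mark the element, which reads the same on both strands.
Ppm1d, chr11:85311004-85311253, plus strand, element beginning 85 bases before the start: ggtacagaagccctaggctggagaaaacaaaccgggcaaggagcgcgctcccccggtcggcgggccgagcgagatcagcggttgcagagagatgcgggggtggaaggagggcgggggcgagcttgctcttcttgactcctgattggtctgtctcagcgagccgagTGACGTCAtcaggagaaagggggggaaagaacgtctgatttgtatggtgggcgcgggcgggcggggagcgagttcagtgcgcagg
Ppm1a, chr12:72760961-72761210, plus strand, element beginning 136 bases before the start: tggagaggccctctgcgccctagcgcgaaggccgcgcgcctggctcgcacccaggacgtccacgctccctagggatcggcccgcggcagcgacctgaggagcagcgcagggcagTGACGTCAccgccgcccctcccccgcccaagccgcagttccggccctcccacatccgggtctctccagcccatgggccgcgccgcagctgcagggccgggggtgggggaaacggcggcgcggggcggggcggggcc
The window of Ppm1j, which also had a probe lower in Wip1-/-, does not hold these letters. The element was searched for after these values and sequences were known. It was found in 2 of the 12 windows of the 9 members with an entry (16.7%) and in 508 of all 32851 windows (1.55%). A match describes the letters of a window and is not evidence of binding.

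The 4 probes annotated to Ppm1d showed different patterns. ILMN_3133522, annotated to the RefSeq mRNA, was the only one detected on all 9 arrays. It fell in Wip1-/- but not on the arrays labelled Wip1-/- Atm+/-, where its mean was 0.10 above wild type, although that label also names the loss of both Wip1 copies. ILMN_1226504, annotated to a cDNA clone, was detected in Wip1-/- and on no array of the other genotypes. The sources used here do not place the probes relative to the disrupted part of the gene. A probe outside it checks nothing about the knockout.

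The scanner intensity of ILMN_3133522, before any normalization, was 660.2, 763.4 and 800.8 in wild type. In Wip1-/- it was 562.3, 631.8 and 480.9, and on the arrays labelled Wip1-/- Atm+/- it was 777.5, 622.2 and 641.2. On that scale every Wip1-/- array lay under every wild type array, while the lowest array labelled Wip1-/- Atm+/- lay just under the highest Wip1-/- array. The arrays labelled Wip1-/- Atm+/- at 622.2 and 641.2 also lay under every wild type array, and that at 777.5 did not. The mean was 741.5 in wild type, 558.3 in Wip1-/- and 680.3 on the arrays labelled Wip1-/- Atm+/-. The normalized log2 level was 9.14, 9.46 and 9.46 in wild type (9.35 ± 0.18, SD, n = 3). It was 8.63, 8.87 and 8.59 in Wip1-/- (8.70 ± 0.15) and 9.52, 9.39 and 9.45 in the third labelled group (9.46 ± 0.07). After normalization Wip1-/- was below both other groups with no overlap, and the signal remained detected there on all 3 arrays.

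The log2 change of ILMN_3133522 in Wip1-/- was -0.66 (SE 0.13, limma adjusted p = 0.00639), a 1.58-fold lower level. The arrays labelled Wip1-/- Atm+/- were 0.76 above Wip1-/- (SE 0.13, limma adjusted p = 0.00112) and differed from wild type by 0.10 (SE 0.13, limma adjusted p = 0.611). The authors' processed intensities of this probe were 726.766, 873.871 and 870.522 in wild type, 543.475, 621.213 and 532.643 in Wip1-/-, and 905.827, 838.642 and 868.48 for the third labelled group. On both normalized scales, then, this Ppm1d probe stood near wild type on the arrays labelled Wip1-/- Atm+/-. Since the probe is not placed relative to the disrupted part, its level cannot check that label. These arrays are called by their label, or the third labelled group.

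ILMN_1226504 had log2 levels of 4.87, 4.62 and 4.87 in wild type, none of them detected. In Wip1-/- the levels were 6.19, 5.83 and 6.04, each detected, and on the arrays labelled Wip1-/- Atm+/- they were 4.81, 4.75 and 5.21, again undetected. The Wip1-/- arrays thus stood clear of both other genotypes. Against the lowest signal that counts as detected on the wild type arrays, Wip1-/- was at least 1.41-fold higher. The bound against the arrays labelled Wip1-/- Atm+/- was also at least 1.41-fold. For each array of the dim genotype, the bound takes the lowest detected level or the probe's own level, whichever is higher, and compares the bright genotype's mean with it. The probe passed the filter only through Wip1-/-, so a difference was built into its entry, and its levels are given as a description with no test.

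ILMN_1237129, also annotated to a cDNA clone, passed detection on 2 arrays of wild type, 3 of Wip1-/- and 0 of those labelled Wip1-/- Atm+/-. Its levels were 5.78, 5.62 and 5.34 in wild type, 5.39, 5.52 and 5.51 in Wip1-/-, and 4.99, 5.28 and 5.42 for the third labelled group. The 3 sets of values overlapped, and none of the 3 changes passed the test. The arrays labelled Wip1-/- Atm+/- were -0.35 from wild type (SE 0.15, limma adjusted p = 0.107). Without wild type replicate 3 that change was -0.47 and passed (limma adjusted p = 0.0422). Against the bound for those undetected arrays, the wild type mean was only 1.04-fold higher, and single arrays overlapped. The fourth probe, ILMN_1246823, was detected on no array, with log2 levels of 4.76 ± 0.18 in wild type, 4.65 ± 0.03 in Wip1-/- and 4.59 ± 0.11 for the third labelled group.

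**Figure D1:**
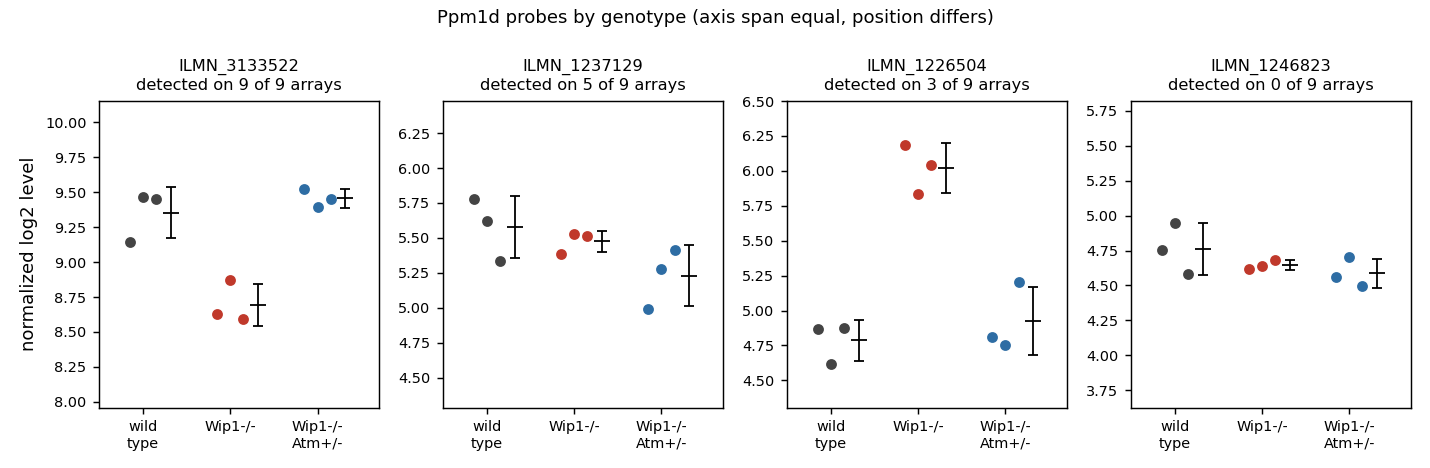
Normalized log2 level of the 4 Ppm1d probes (vertical axis) in the 3 genotypes (horizontal axis, 3 arrays each), with each array as a point and the mean ± SD beside it. The axes span the same range but differ in position. ILMN_3133522 is lowest in Wip1-/- (8.70), while ILMN_1226504 is highest there (6.02).

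Whether the Ppm1d probes differed from each other in their response was tested on the difference between each pair of probes, array by array, with an exact permutation test of the F statistic over the 1680 ways of placing 9 arrays in 3 groups (smallest possible p 0.00357). Of the 3 pairs computed, those with ILMN_1226504 carry the difference by which it passed the filter and are not given as tests. For ILMN_3133522 against ILMN_1237129 the exact p was 0.0143, and 0.0214 after Benjamini-Hochberg adjustment over the 3 pairs. Between Wip1-/- and wild type the change of ILMN_3133522 was -0.56 relative to that of ILMN_1237129. With 3 arrays against 3, the exact test of this contrast alone gave p = 0.1, the smallest it can give. ILMN_1237129 passed the filter only through wild type and Wip1-/-. It was not detected on the arrays labelled Wip1-/- Atm+/-, so its level there is only bounded. The F test over 3 groups includes those undetected levels, so its p cannot decide whether these probes responded unequally.

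The probes of other genes whose levels followed ILMN_3133522 most closely over the 9 arrays belonged to Srxn1 (Pearson r = 0.984), Wdr46 (0.973), Actrt1 (0.971), Mipol1 (0.968) and Csnka2ip (0.965). Actrt1 encodes an actin-related protein of the sperm head, and Srxn1 a reductase that restores oxidized peroxiredoxins. The mean level of Actrt1 was 10.95 in wild type, 10.39 in Wip1-/- and 11.21 on the arrays labelled Wip1-/- Atm+/-, and that of Srxn1 was 10.18, 9.73 and 10.31. These correlations are descriptions over 9 arrays that share the 3 genotypes, and the genes were picked as the closest among all tested probes with 1 symbol.

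Over the whole family, 5 of the 18 tested probes rose in Wip1-/- against wild type and 3 fell. Those 8 probes belong to 6 genes and make 44.4% of the tested members, against a background of 17.6% of all 18867 probes (9.57% higher and 8.05% lower). Against wild type, 5 member probes of 3 genes rose and 0 fell on the arrays labelled Wip1-/- Atm+/-, 27.8% against a background of 28.1%, a share near that of all probes. Against Wip1-/-, the same arrays had 7 member probes higher and 1 lower, again 44.4%, against 33.6% of all probes. ILMN_1226504 of Ppm1d, which entered only through Wip1-/-, is 1 of the 5 higher probes of the first comparison and the lower probe of the last. At an unadjusted limma p under 0.05, higher and lower member probes numbered 7 and 5, 5 and 5, and 10 and 2 in these comparisons. No share of all probes was taken at that threshold, so these unadjusted counts have no background. Among the 16 member probes detected on all 9 arrays, 4 rose and 3 fell in Wip1-/- against wild type, where 22.6% of all such probes passed. With 1 probe per gene, the brightest, 0 of 9 members were higher and 2 lower in that comparison. This stands beside 19.8% of all 10556 genes so tested, a share near the background. None of the 5 higher probes in Wip1-/- against wild type was the brightest of its gene. In the second comparison 1 of 9 was higher and 0 lower beside 29.4%, and in the third 3 were higher and 0 lower beside 34.7%. Probes of 1 gene share their source, so these shares do not count independent events.

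The genotypes did not overlap at 10 of the 18 probes between Wip1-/- and wild type (36.6% of all probes), at 11 between wild type and the arrays labelled Wip1-/- Atm+/- (40.7%), and at 12 between those arrays and Wip1-/- (48.5%). The median change of the tested members was -0.09, 0.15 and 0.27 in these 3 comparisons, beside 0.02, -0.06 and -0.03 over all probes. Scaling each array to its median in place of quantile normalization moved the median of all probes to 0.09, -0.17 and -0.22. The splits of higher and lower members were then 7 and 3 in Wip1-/- against wild type, 5 and 6 in the second comparison and 4 and 2 in the third, beside 21.7%, 34.3% and 42.7% of all probes called. With no background correction they were 4 and 4, 5 and 3, and 10 and 2, beside 20%, 29.9% and 35.6%.

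**Figure D2:**
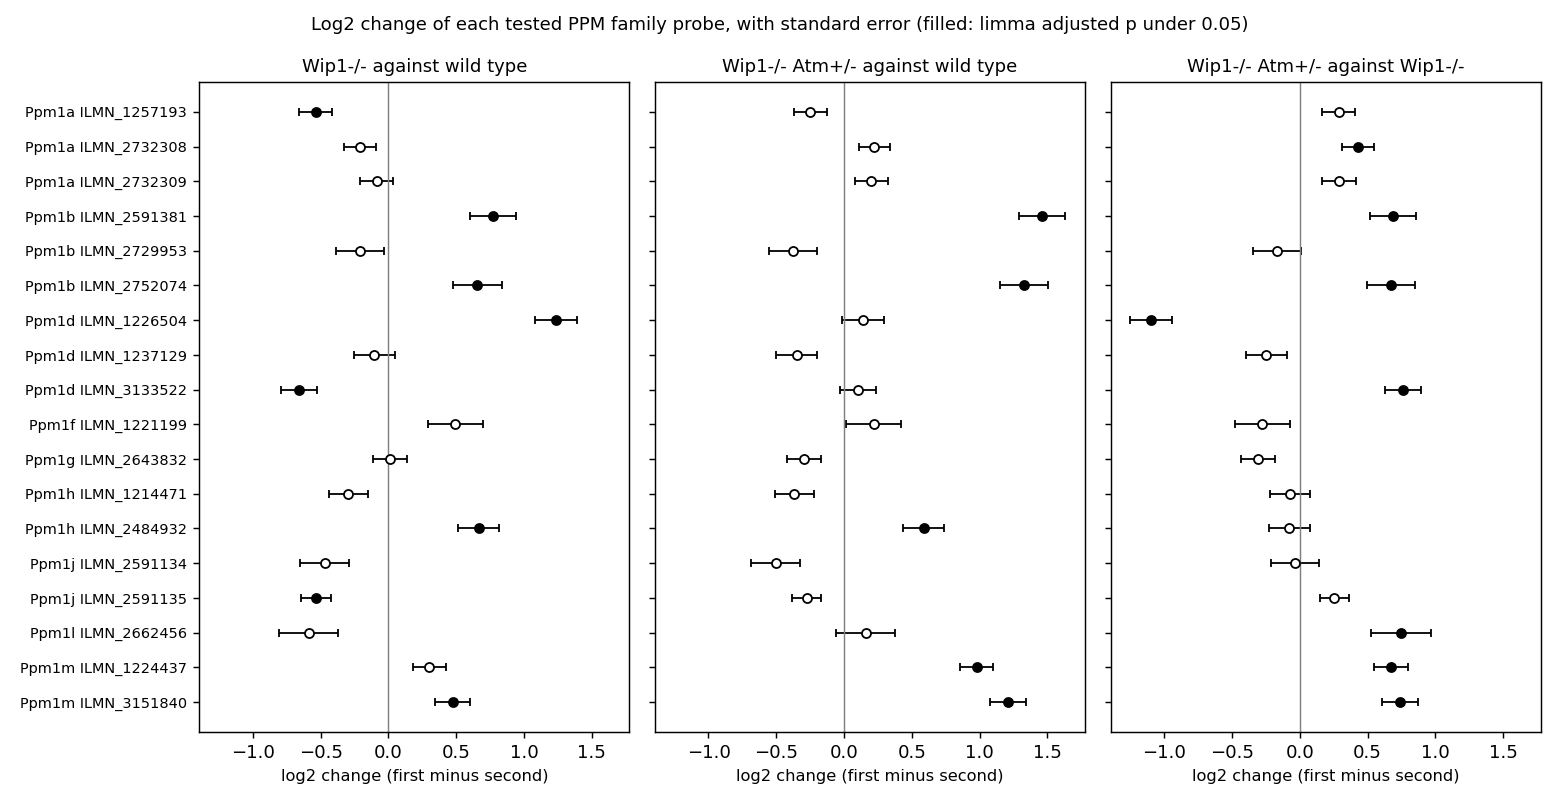
Log2 change of each of the 18 tested probes (horizontal axis, first genotype minus second) in the 3 comparisons, with its standard error as a bar. Filled points passed the limma test; 8, 5 and 8 of 18 did so from left to right. ILMN_2591381 and ILMN_2752074 of Ppm1b and both Ppm1m probes lie farthest to the right in the comparison of the arrays labelled Wip1-/- Atm+/- with wild type.

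Among the members that act on stress kinases and Smad proteins, 2 probes of Ppm1b had the largest changes of the tested members between wild type and the arrays labelled Wip1-/- Atm+/-, and another probe of the same gene did not move with them. Ppm1b removes phosphate from the kinases TAK1 and IKK-beta and thereby dampens inflammatory signalling. For ILMN_2591381 the levels were 6.29, 6.31 and 6.97 in wild type, 7.34, 7.23 and 7.33 in Wip1-/-, and 8.01, 8.03 and 7.92 on the arrays labelled Wip1-/- Atm+/-. The 3 genotypes did not overlap and stood in that order. The rise over wild type was 0.77 in Wip1-/- (SE 0.17, limma adjusted p = 0.0102) and 1.46 in the third labelled group (SE 0.17, limma adjusted p = 7.42e-05), a 2.76-fold difference. The arrays labelled Wip1-/- Atm+/- were also above Wip1-/-, by 0.69 (SE 0.17, limma adjusted p = 0.00916), but under median scaling by 0.40, which did not pass (adjusted p = 0.091).

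ILMN_2752074 of Ppm1b followed the same order, with 6.44, 7.07 and 7.07 in wild type, 7.75, 7.33 and 7.48 in Wip1-/-, and 8.31, 8.12 and 8.13 for the third labelled group. Its change was 0.65 in Wip1-/- (SE 0.18, limma adjusted p = 0.0291) and 1.33 on the arrays labelled Wip1-/- Atm+/- (SE 0.18, limma adjusted p = 0.000243). The first of these calls was lost without wild type replicate 1 (adjusted p = 0.0791) and without Wip1-/- replicates 1 and 3 (adjusted p = 0.117 and 0.0703), with no filter on dim probes (0.06) and in a fit of only these 2 genotypes (0.0514). Above Wip1-/- the arrays labelled Wip1-/- Atm+/- stood by 0.67 (limma adjusted p = 0.0142), a difference that did not pass under median scaling (0.38, adjusted p = 0.116) or without Wip1-/- replicate 2 (0.057). The third probe, ILMN_2729953, had mean levels of 9.35 ± 0.27, 9.14 ± 0.20 and 8.97 ± 0.27 in wild type, Wip1-/- and the third labelled group. Its changes against wild type, -0.21 and -0.38, did not pass (limma adjusted p = 0.456 and 0.147). Under median scaling the second of them was -0.59 and passed (adjusted p = 0.0213), opposite in direction to the other Ppm1b probes.

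Ppm1a, which removes the activating phosphates of Smad2 and Smad3 and of p38, is represented by 3 probes. ILMN_1257193 fell in Wip1-/-, from 13.02, 12.88 and 12.91 in wild type to 12.30, 12.47 and 12.43. The arrays labelled Wip1-/- Atm+/- lay between, at 12.63, 12.56 and 12.86. The fall was -0.54 (SE 0.12, limma adjusted p = 0.0119) and did not pass without Wip1-/- replicate 1 (adjusted p = 0.0538). The other Ppm1a probes differed from wild type by -0.21 and -0.09 in Wip1-/- (limma adjusted p = 0.243 and 0.663).

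For Ppm1a the arrays labelled Wip1-/- Atm+/- were above every Wip1-/- array at all 3 probes, by 0.29, 0.43 and 0.29. Of these differences, that of ILMN_2732308 passed (SE 0.12, limma adjusted p = 0.0146), with 12.89, 12.80 and 12.82 against 12.55, 12.35 and 12.31. It did not pass without Wip1-/- replicate 2 (adjusted p = 0.0513) or replicate 3 (adjusted p = 0.0616). The differences at the other Ppm1a probes did not pass (limma adjusted p = 0.0917 and 0.0951), but did with no background correction (0.0281 and 0.0305) and with the authors' values (0.0461 and 0.0471), and at ILMN_2732309 also with cyclic loess (0.0492). Against wild type, where ILMN_1257193 was -0.25 and the other probes 0.22 and 0.20, none passed (limma adjusted p = 0.151, 0.181 and 0.254), though under median scaling ILMN_1257193 was -0.42 with an adjusted p of 0.0255.

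Ppm1l sits in the membrane of the endoplasmic reticulum, where it acts on the ceramide carrier CERT, and it also restrains TAK1 and ASK1. Its probe ILMN_2662456 had levels of 6.31, 6.85 and 6.36 in wild type, 6.36, 5.73 and 5.66 in Wip1-/-, and 6.96, 6.63 and 6.39 for the third labelled group. Wild type overlapped both other genotypes, which were themselves apart by a narrow gap. The change in Wip1-/- was -0.59 (SE 0.22, limma adjusted p = 0.089), and without Wip1-/- replicate 1 it was -0.81 and passed (adjusted p = 0.0356). The arrays labelled Wip1-/- Atm+/- were 0.75 above Wip1-/- (SE 0.22, limma adjusted p = 0.0223). That call was lost without Wip1-/- replicates 2 or 3 (adjusted p = 0.0787 and 0.0874), without replicates 1 or 2 of the third labelled group (0.0811 and 0.0505), under median scaling (0.0563) and with no filter on dim probes (0.0558). The other probes of Ppm1l were detected on no array.

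Ppm1f removes phosphate from the calmodulin-dependent kinase CaMKII and from PAK kinases, and Ppm1g is a nuclear phosphatase of splicing and chromatin proteins. Ppm1f had levels of 6.78, 7.45 and 7.01 in wild type, 7.88, 7.34 and 7.49 in Wip1-/-, and 7.434, 6.996 and 7.457 for the third labelled group (ILMN_1221199). The groups overlapped, and its change of 0.49 in Wip1-/- did not pass (SE 0.20, limma adjusted p = 0.12), but without wild type replicate 2 it was 0.68 with an adjusted p of 0.0428, and under median scaling 0.69 with an adjusted p of 0.0293. The third labelled group was -0.28 from Wip1-/- (limma adjusted p = 0.332), and -0.53 under median scaling (adjusted p = 0.0489). The other Ppm1f probes were detected on 1 and 2 arrays and not tested.

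The single Ppm1g probe, ILMN_2643832, had levels of 13.44, 13.38 and 13.08 in wild type, 13.39, 13.24 and 13.30 in Wip1-/-, and 13.03, 13.05 and 12.92 on the arrays labelled Wip1-/- Atm+/-. Those last arrays lay below all others. The differences of -0.30 from wild type and -0.31 from Wip1-/- (SE 0.13 each) did not pass (limma adjusted p = 0.101 and 0.0804). Without wild type replicate 3 the first was -0.41 and passed (adjusted p = 0.0308), as it did under median scaling, where it was -0.48 (adjusted p = 0.0232). Both differences passed with no background correction (0.0331 and 0.0239) and with the authors' values (0.0449 and 0.0333), and the second also without wild type replicate 3 (0.0492). Between Wip1-/- and wild type the change was 0.01 (limma adjusted p = 0.964).

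Ppm1m, known as PP2C eta, rose on the arrays labelled Wip1-/- Atm+/- at both of its detected probes. ILMN_1224437 had levels of 7.54, 7.65 and 7.46 in wild type, 7.77, 7.72 and 8.06 in Wip1-/-, and 8.57, 8.54 and 8.47 for the third labelled group. ILMN_3151840 had 5.86, 5.98 and 5.82, then 6.32, 6.35 and 6.41, then 7.33, 6.87 and 7.10. At both probes the 3 genotypes stood apart in the order wild type, Wip1-/-, Wip1-/- Atm+/- by label.

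The rise over wild type on the arrays labelled Wip1-/- Atm+/- was 0.98 at ILMN_1224437 (SE 0.12, limma adjusted p = 0.000149, 1.97-fold) and 1.21 at ILMN_3151840 (SE 0.13, limma adjusted p = 4.65e-05, 2.31-fold). Against Wip1-/- these arrays were higher by 0.67 and 0.74 (limma adjusted p = 0.00169 and 0.00142). In Wip1-/- the change was 0.30 at the first probe of Ppm1m (limma adjusted p = 0.118; 0.47 and 0.0194 under median scaling) and 0.47 at the second (SE 0.13, limma adjusted p = 0.0307). That call at ILMN_3151840 was lost without any 1 of 5 arrays, namely wild type replicates 1 and 3 and the 3 Wip1-/- replicates (adjusted p from 0.0726 to 0.0982). It was also lost without background correction (0.11) and with the authors' values (0.0678). The other Ppm1m probes were detected on no array.

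Ppm1h removes the phosphates that the kinase LRRK2 places on Rab GTPases. ILMN_2484932, which the annotation gives no transcript, had levels of 6.64, 6.79 and 6.83 in wild type, 7.19, 7.55 and 7.52 in Wip1-/-, and 7.09, 7.56 and 7.38 for the third labelled group. Both other genotypes were above wild type with no overlap, by 0.67 (SE 0.15, limma adjusted p = 0.0122) and 0.59 (SE 0.15, limma adjusted p = 0.013). The first call was lost without Wip1-/- replicate 3 (adjusted p = 0.0508) and the second without replicate 2 of the third labelled group (adjusted p = 0.0515).

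ILMN_1214471, annotated to the Ppm1h mRNA, was at 8.05 ± 0.15 in wild type, 7.76 ± 0.19 in Wip1-/- and 7.69 ± 0.18 for the third labelled group. The changes of this Ppm1h probe against wild type were -0.29 and -0.37, neither of which passed (limma adjusted p = 0.186 and 0.0822), although the second passed under median scaling at -0.49 (adjusted p = 0.021). A test of the difference between the Ppm1h probes was not made. Another pair of Ppm1h probes was detected on no array.

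Ppm1j, known as PP2C zeta and described from testicular germ cells, was lower in Wip1-/-. ILMN_2591135 had levels of 10.40, 10.16 and 10.23 in wild type, 9.73, 9.73 and 9.74 in Wip1-/-, and 9.98, 10.05 and 9.94 for the third labelled group. The arrays labelled Wip1-/- Atm+/- lay between the others with no overlap. The fall in Wip1-/- was -0.53 (SE 0.11, limma adjusted p = 0.00749), while the difference of -0.28 between the third labelled group and wild type did not pass (limma adjusted p = 0.0836). It was -0.51 under median scaling and passed (adjusted p = 0.00835), as it did with no background correction (0.0275), where the difference of 0.23 from Wip1-/- passed too (0.0372).

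ILMN_2591134 of Ppm1j had levels of 10.70, 10.73 and 10.23 in wild type, 10.14, 10.08 and 10.02 in Wip1-/-, and 9.77, 9.96 and 10.41 for the third labelled group. Its changes of -0.47 and -0.50 against wild type (SE 0.18 each) did not pass (limma adjusted p = 0.0972 and 0.0584). Without wild type replicate 3 both passed, the first at -0.63 (adjusted p = 0.038) and the second with an adjusted p of 0.0192. The second also passed without replicate 3 of the third labelled group (0.0161) and, in a separate setting, under median scaling at -0.75 (0.00734). It passed among probes detected on all 9 arrays as well (0.0459). Both passed with no background correction (0.0422 and 0.0218) and with the authors' values (0.0496 and 0.0261).

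Ppm1k activates the branched-chain ketoacid dehydrogenase of mitochondria by removing its inhibitory phosphate. Of its 4 probes 3 were detected on no array. ILMN_2923615 has values only in the authors' table, 101.6, 111.397 and 93.1446 in wild type, 137.665, 114.193 and 112.849 in Wip1-/-, and 169.823, 107.622 and 140.683 for the third labelled group. Whether it was above background is not known here. On log2 of the authors' values the third labelled group was 0.43 above wild type (SE 0.13, limma adjusted p = 0.0393 over 45279 probes), with overlapping values, and Wip1-/- was 0.25 above wild type (limma adjusted p = 0.345).

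**Figure D3:**
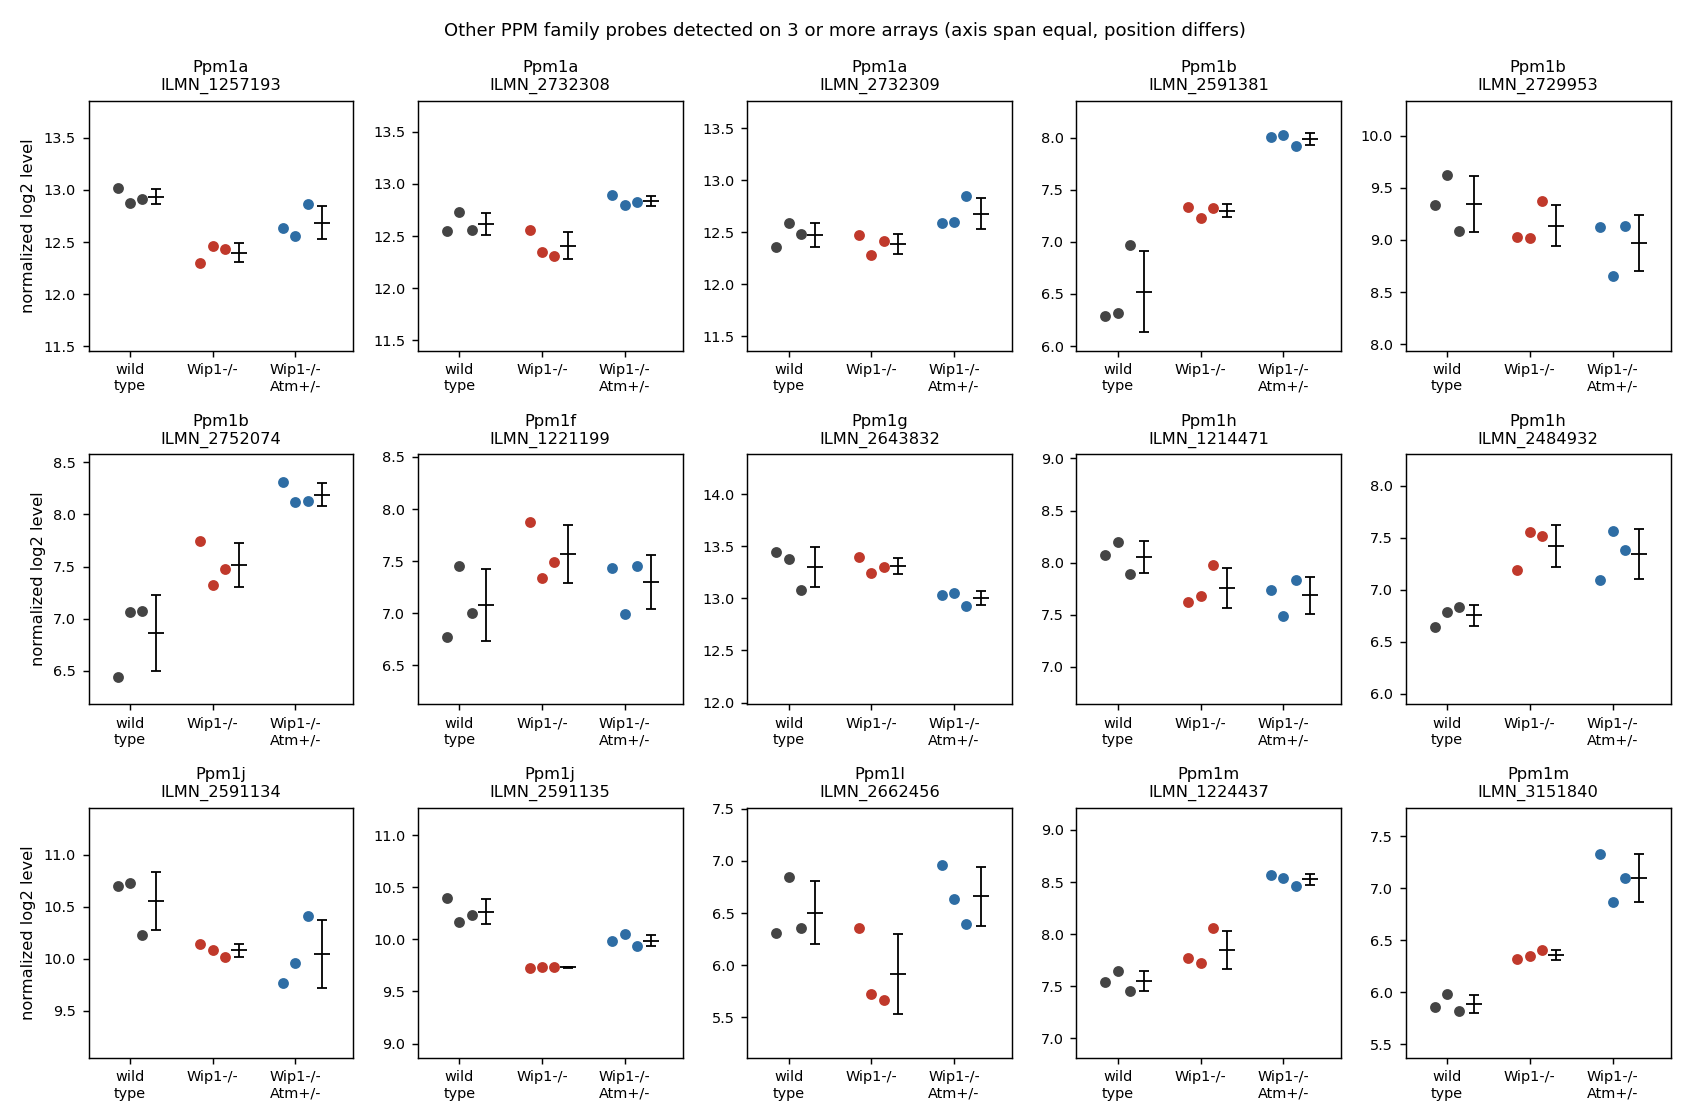
Normalized log2 level (vertical axis) of the tested probes of the other members in the 3 genotypes (horizontal axis, 3 arrays each), with arrays as points and mean ± SD. The axes span the same range at different positions. The Ppm1m probes and ILMN_2591381 of Ppm1b rise in steps over the genotypes, to 8.53, 7.10 and 7.99 on the arrays labelled Wip1-/- Atm+/-.

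Markers of other cell types also moved with the genotypes. The summed normalized intensity of the 12 peritubular, vascular and stromal markers was 4915.34 to 5000.59 in wild type, 11391.7 to 12456.7 in Wip1-/- and 26806.5 to 26888.2 on the arrays labelled Wip1-/- Atm+/-. Of the 12, 7, 9 and 9 were detected on all 3 arrays, while Cdh5, Col3a1, Pecam1 and Tagln were undetected in wild type, Col3a1 in Wip1-/- and Pecam1 in the third labelled group. The 4 measured erythroid markers summed to 245.842 to 292.932, 430.632 to 516.622 and 1759.85 to 1854.07, with Alas2 undetected in wild type and in Wip1-/-. This is the order of the genotypes at the Ppm1m probes and at ILMN_2591381 and ILMN_2752074 of Ppm1b, and the part of these cells in those levels was not tested.

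The 13 measured spermatid markers were detected on every array and summed to 293126 to 306974 in wild type, 278319 to 286343 in Wip1-/- and 298330 to 303390 in the third labelled group. Wip1-/- was lowest here, as at ILMN_3133522 of Ppm1d, and the part of spermatids in the level of that probe was not tested. The median log2 level of the spermatid markers was 14.63, 14.21 and 14.43 in the same order. On that measure the third labelled group was below wild type, unlike at ILMN_3133522. The 7 measured spermatogonial markers summed to 1385.08 to 1659.01, 1866.61 to 2047.04 and 641.34 to 742.297, with Nanos3 undetected throughout and Stra8 detected only in Wip1-/-. The 8 spermatocyte markers summed to 8049.15 to 8562.7, 8810.75 to 9218.71 and 6604.32 to 7284.71, with Hormad1 and Sycp3 undetected on all arrays. Both of these sums were highest in Wip1-/-, the genotype in which ILMN_1226504 of Ppm1d was detected, and their part in that level was not tested. A sum is carried by its brightest genes. The median log2 level of the spermatogonial markers was highest in wild type, at 7.53, 7.44 and 6.54 in the same order. That of the spermatocyte markers was 8.85, 9.17 and 8.50. In bulk RNA, fewer cells of a type and less RNA per cell cannot be told apart.

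The 6 measured Sertoli markers summed to 571.716 to 699.208, 707.839 to 761.191 and 798.314 to 899.294, with Amh and Gata4 undetected on all arrays. These sums stood in the same order as the stromal and erythroid sums, and their part in the Ppm1m and Ppm1b levels was not tested. The 5 Leydig markers summed to 290.122 to 361.429, 252.18 to 277.075 and 293.811 to 329.899, with Cyp17a1, Hsd3b1 and Star undetected, and the 5 macrophage and immune markers to 220.468 to 254.605, 305.462 to 322.712 and 179.321 to 224.626, with Ptprc undetected. Like the spermatogonial and spermatocyte sums, the macrophage and immune sum was highest in Wip1-/-. Its part in the level of ILMN_1226504 was not tested.

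**Figure D4:**
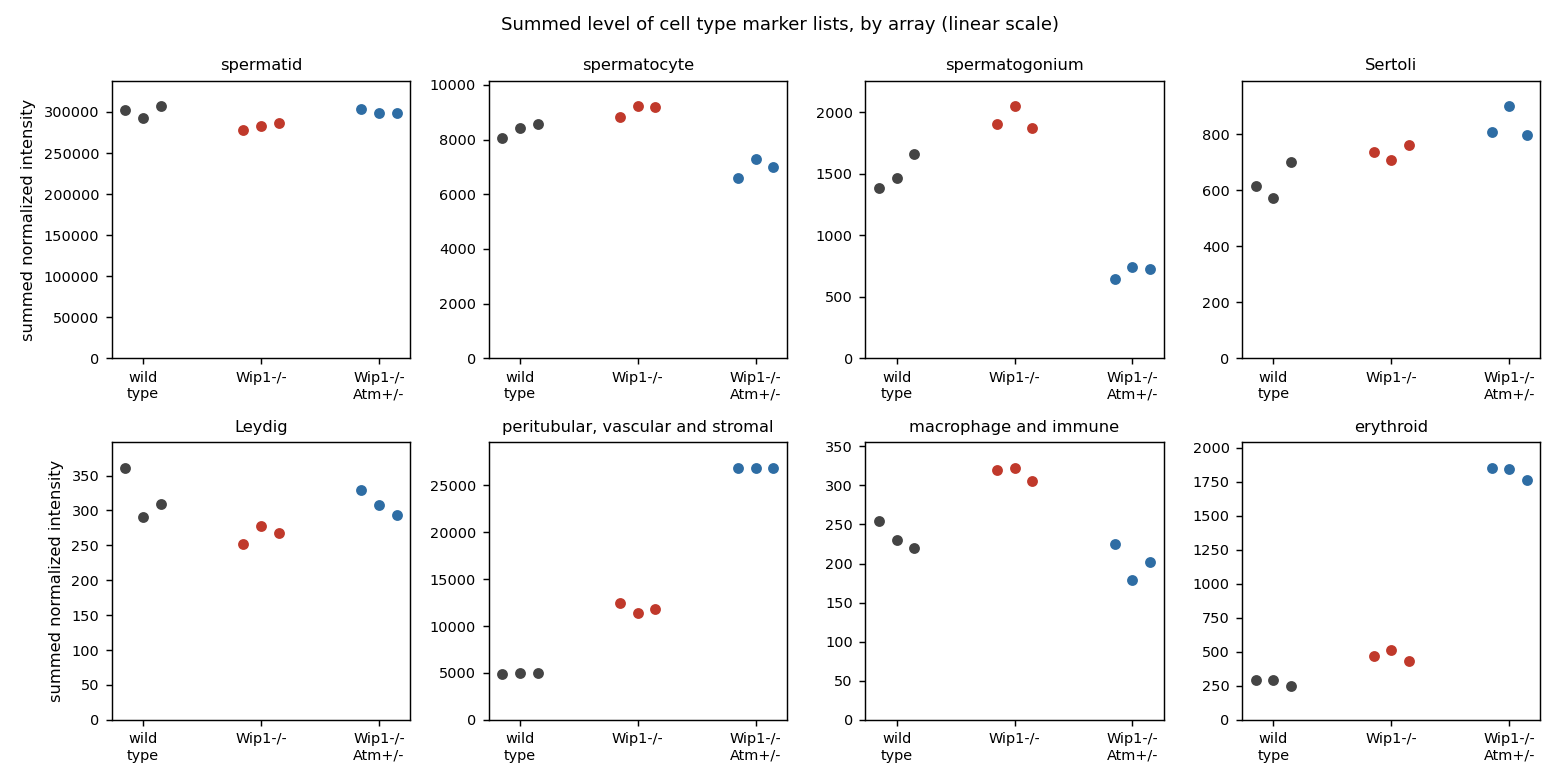
Summed normalized intensity of each cell type marker list (vertical axis, linear scale from 0) on each array of the 3 genotypes (horizontal axis). The stromal, erythroid and Sertoli sums step upward over the genotypes, while the spermatid sum is lowest in Wip1-/- at 278319 to 286343.

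Genes outside the 10 members that share the same enzyme fold, and the known substrates and partners of the family, were counted at the brightest probe of each gene, with 10556 genes tested. Counts at an unadjusted p under 0.05 have no background share here, so they cannot be read as an excess. Of 10 other genes of the PP2C fold 8 were tested, and their median change was 0.33, 0.20 and -0.11 in the 3 comparisons, beside 0.04, -0.03 and -0.02 over all genes. In Wip1-/- against wild type 1 rose and 0 fell (backgrounds of 10.3% and 7.71%), namely Pp2d1, by 0.48 (SE 0.14, limma adjusted p = 0.0378), a call lost in 9 of 19 alternatives; at an unadjusted p under 0.05 the limma fit gave 4 higher and 0 lower. The counts for the arrays labelled Wip1-/- Atm+/- were 2 higher and 1 lower than wild type (backgrounds of 15% and 13.2%). Pdp2, which activates pyruvate dehydrogenase, rose by 1.13 (SE 0.20, limma adjusted p = 0.00128), with detection on 1 of 3 wild type arrays, and Tab1, a partner of TAK1 with an inactive PP2C fold, by 0.54 (limma adjusted p = 0.016). Ilkap, a phosphatase that binds integrin-linked kinase, differed by -0.54 (limma adjusted p = 0.00749). Against Wip1-/- those arrays had 0 higher and 2 lower (backgrounds of 16.3% and 17.3%), Ilkap by -0.93 and Pp2d1 by -0.66 (limma adjusted p = 0.000214 and 0.00393), and at an unadjusted p under 0.05 it gave 2 higher and 2 lower.

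Of 15 Wip1 substrates and partners 14 were on the array and 10 tested, with median changes of 0.04, -0.07 and -0.36. In Wip1-/- against wild type 2 rose and 0 fell in the limma fit (3 and 1 at an unadjusted p under 0.05), beside 10.3% and 7.71% of all genes. Atm, the kinase that Wip1 opposes, rose by 0.81 (SE 0.11, limma adjusted p = 9.8e-04), and Mapk14, which encodes p38, by 0.69 (SE 0.14, limma adjusted p = 0.00719). Compared with wild type, 0 of these genes rose and 3 fell on the arrays labelled Wip1-/- Atm+/- in the limma fit, with the same counts at an unadjusted p under 0.05, beside 15% and 13.2% of all genes. Atm was at -0.71 (limma adjusted p = 0.000646), Ung, a DNA glycosylase that removes uracil, at -1.02 (limma adjusted p = 0.000562) and Mdm4, an inhibitor of p53, at -0.85 (limma adjusted p = 0.00195).

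Between those arrays and Wip1-/- 1 of these genes rose and 5 fell, beside 16.3% and 17.3% of all genes. Atm differed by -1.52 (limma adjusted p = 4.56e-06), Mdm4 by -0.85 (0.00173), Ung by -0.77 (0.00286) and Mdm2, the ubiquitin ligase of p53, by -0.61 (0.00605). The remaining calls, Mapk14 at -0.46 (limma adjusted p = 0.0257) and the DNA damage sensor Xpc at 0.55 (0.0149), are named after their values were seen. The spermatogonial and spermatocyte marker sums were also lowest on the arrays labelled Wip1-/- Atm+/-, and their part in these falls was not tested.

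Of 27 substrates and partners of the other members 25 were on the array and 18 tested, with median changes of 0.05, -0.14 and -0.07. In Wip1-/- against wild type 1 rose and 0 fell in the limma fit (2 and 1 at an unadjusted p under 0.05), beside 10.3% and 7.71% of all genes. That gene was Smad2, a target of Ppm1a, which was detected on the 3 Wip1-/- arrays and on no other, and so passed the filter only through them. Its level in Wip1-/- was at least 1.04-fold that of wild type, and the call was lost in 12 of 18 alternatives. Compared with wild type, 1 of them rose and 1 fell on the arrays labelled Wip1-/- Atm+/-, beside 15% and 13.2%. Cert1, the ceramide carrier on which Ppm1l acts, rose by 0.44 (limma adjusted p = 0.00881) and did not pass under median scaling (0.131). Cdk2, a cell cycle kinase, was at -0.55 (limma adjusted p = 0.0395), a call lost in 11 of 19 alternatives. Against Wip1-/- 0 rose and 2 fell in the limma fit, with the same counts unadjusted and beside 16.3% and 17.3% of all genes, Cdk2 at -0.81 (limma adjusted p = 0.00477) and Nap1l1, a histone chaperone, at -0.44 (limma adjusted p = 0.0136).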

How the data were processed

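Trizol-extracted RNA was treated with DNase, purified and made into biotinylated cRNA, per the labels' protocols. The deposited scanner values are, per the file headers, non-normalized signal intensity per probe. The authors' second deposited table gives processed intensity values on a linear scale, with column medians of 110.972 to 111.065, and no source used here gives the steps behind it. Other deposited columns hold the detection p-value, and 895 of these cells had lost the decimal point and were read as thousandths. Of 45279 probes, 1697 without scanner values were left out of the fit, and all 9 arrays were used, with 0 unused columns.

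Signals were corrected and quantile normalized with neqc of limma 3.58.1 (R 4.3.3, offset 16), which removes any difference in total RNA. Its offset shrinks the changes of dim probes, but its background correction can widen them. ILMN_3151840 of Ppm1m changed by 0.47 in Wip1-/- with neqc, 0.20 with no background correction and 0.26 on the authors' values. The filter kept 18867 probes that had a detection p below 0.05 on 3 or more arrays. One limma fit of genotype means used all 9 arrays (residual degrees of freedom 6, prior 5.12), and the 3 comparisons, which share arrays, were tested two-sided. The fit was tested on simulated data. The exact permutation tests were two-sided over arrays.

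The members, gene lists and markers were chosen with earlier results of these data known. All member probes are accounted for. In each pathway list up to 4 passing genes with the largest change per comparison are named, and for ILMN_3133522 the 5 most correlated probes. Symbols come from the platform annotation, and 10 of 10 members matched the RefSeq gene table. Alternatives covered background correction, scaling, the detection filter, 1 probe per gene, the authors' values (all 45279 probes included, added after seeing the data), a replicate block, fits of 2 genotypes and leaving out each array.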

Additional observations from a re-analysis of the deposited data

How the results depend on the processing

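Over 19 alternatives, 993 checks of a member probe in a comparison gave the same call in 929, a lost call in 29 and a gained call in 35, and 0 calls with the opposite sign (limma). The 8 member calls of Wip1-/- against wild type (17.6% of all probes called) became 2 with 1 probe per gene (19.8% of all genes). Over the arrays left out they ran from 5 (without Wip1-/- replicate 3, 10.7% of all probes) to 9 (without wild type replicate 2, 15%). The 5 calls between wild type and the arrays labelled Wip1-/- Atm+/- (28.1% of all probes) became 8 with no background correction (29.9%), 11 with median scaling (34.3%) and 1 with 1 probe per gene (29.4%). Over the arrays left out they ran from 4 (without replicate 2 of the third labelled group, 24%) to 8 (without wild type replicate 3, 26.9%). The 8 calls between those arrays and Wip1-/- (33.6% of all probes) became 3 with 1 probe per gene (34.7%). They ran from 5 (without Wip1-/- replicate 2, 27.8%) to 9 (without wild type replicate 3, 34.5%). Testing 1 probe per gene leaves 9 member probes by construction; the cause of the other shifts was not tested. Over all probes, 3324 calls of Wip1-/- against wild type became 1884 without Wip1-/- replicate 1, 2014 without replicate 3 and 2091 with 1 probe per gene, which also took 5299 to 3103 and 6336 to 3667 in the other comparisons. The change of ILMN_3133522 in Wip1-/- ran from -0.76 to -0.60 over the arrays left out, passing throughout; that of ILMN_1237129 between wild type and the arrays labelled Wip1-/- Atm+/- ran from -0.47 to -0.23. The relative change of ILMN_3133522 in Wip1-/- ran from -0.76 to -0.38 against ILMN_1237129. Replicate numbers did not pair the arrays: deviations of same-numbered arrays did not go together throughout (correlations of -0.05 to 0.28, -0.33 to 0.16 and -0.11 to 0.04 for numbers 1, 2 and 3), and 0 of 9 arrays correlated best with its own number in both other genotypes. With the replicate number as a block 6, 5 and 8 member probes were called, beside 15.1%, 26.4% and 31.6% of all probes. The calls lost were those of ILMN_2752074 of Ppm1b and ILMN_3151840 of Ppm1m in Wip1-/- (adjusted p = 0.0562 and 0.0548). Slide as a block was not run, since the files name no slides. The 12 member probes below the detection filter had signal near background and were not tested in the main fit. A difference at these probes could have been missed.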
